A study of Mus musculus with 28 samples.

Results

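The 7 genes described here carry sodium, chloride and water across the alveolar and airway lining and the blood vessels of the lung. They encode the 3 subunits of the epithelial sodium channel (Scnn1a, Scnn1b and Scnn1g), a beta subunit of the sodium pump (Atp1b1), a chloride channel (Cftr), a sodium, potassium and chloride cotransporter (Slc12a2) and a water channel (Aqp1). They were taken by symbol, and all 7 were found among the 35880 genes of the table and among the 14887 genes that passed the low-count filter and were tested. RNA came from homogenates of whole lung of male wild-type C57BL/6 mice, an inbred strain, whose age is labelled both as 8 weeks and as 8 to 12 weeks. The mice inhaled air (sham), carbon black at 10 mg/m3, ozone at 2 ppm, or both together (co-exposure), for 3 h at a time. The 28 libraries comprise 4 per group at day 1, after 1 exposure, and 3 per group at day 4, after 4 exposures. Carbon black is a particle of nearly pure carbon, and ozone is a gas that oxidizes the fluid and membranes it meets first.

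The alveolus is kept almost dry by sodium transport. Sodium enters alveolar epithelial cells through the epithelial sodium channel on the air side and is pumped out on the blood side by the sodium pump, and water follows. Chloride takes part in both directions: Slc12a2 loads epithelial cells with chloride, and Cftr lets it out into the airway liquid or back in. Aqp1 is a water channel of blood vessel endothelium, red cells and mesothelium, so its place in this system is mostly on the vascular side.

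To show the regulatory start of members whose levels changed with co-exposure, the 250 bases before the RefSeq transcription start (build GRCm38.p6) are given for Aqp1, Cftr and Atp1b1. Promoter windows were examined for 5 members only (these 3, Scnn1b and Scnn1g). Those of the alpha sodium channel subunit and of the cotransporter were not examined, although the cotransporter also rose in co-exposure at day 1. The stretches lie at chr6:55336049-55336298 on the plus strand (Aqp1), chr6:18170437-18170686 on the plus strand (Cftr) and chr1:164458356-164458605 on the minus strand (Atp1b1), and each is written 5′ to 3′ along its gene. Capitals mark the GC box GGGCGG or its reverse complement CCGCCC, a motif bound by Sp family factors.
Aqp1: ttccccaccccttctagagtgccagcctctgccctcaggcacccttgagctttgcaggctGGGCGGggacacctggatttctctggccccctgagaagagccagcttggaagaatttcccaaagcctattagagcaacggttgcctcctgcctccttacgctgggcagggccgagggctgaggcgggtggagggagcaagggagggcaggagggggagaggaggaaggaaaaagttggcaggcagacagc
Cftr: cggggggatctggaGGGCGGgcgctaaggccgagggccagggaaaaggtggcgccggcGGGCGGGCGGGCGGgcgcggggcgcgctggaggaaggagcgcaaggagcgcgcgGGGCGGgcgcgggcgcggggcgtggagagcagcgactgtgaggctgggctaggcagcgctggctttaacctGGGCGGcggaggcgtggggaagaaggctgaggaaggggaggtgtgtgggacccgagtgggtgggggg
Atp1b1: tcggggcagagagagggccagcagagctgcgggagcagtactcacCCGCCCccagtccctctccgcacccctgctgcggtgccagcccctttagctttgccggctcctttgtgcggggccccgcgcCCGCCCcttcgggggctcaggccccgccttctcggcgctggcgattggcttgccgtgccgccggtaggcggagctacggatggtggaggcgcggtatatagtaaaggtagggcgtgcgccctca
Cftr had 6 GC boxes, 3 of them overlapping, Atp1b1 and Scnn1g had 2 each, and Aqp1 and Scnn1b had 1 each, counted over both strands of the 300 base window that runs from 250 bases before to 50 after the start. The GC box was present in 35.9% of 32544 mouse promoter windows of that length. AP-1 (TGANTCA, in 7.79% of windows), the core of the glucocorticoid response element (AGAACA, 18.9%), the E-box (CACGTG, 7.17%) and the cAMP response element (TGACGTCA, 1.8%) were in none of the 5 windows. The antioxidant response element (TGACNNNGC, 12.4%) was found only in Scnn1b, after the start. The RefSeq start of Aqp1 lies upstream of the start in the GENCODE annotation, so its window covers sequence before the annotated gene.

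The deposited values are estimated counts per gene, with 5135443 to 9718682 counts per library, and levels are given here as CPM, the count of a gene relative to the TMM-scaled total of its library, as mean ± SD over libraries. Every member was well covered: the lowest count of any member in any library was 51, for Cftr. Whether the libraries of a group are separate mice is not given in the labels, and the p-values therefore describe library-to-library spread only. Libraries stood apart by skeletal muscle RNA: the summed level of 4 skeletal muscle genes reached 1171 CPM in replicate 2 of sham and 514.8 CPM in replicate 2 of ozone at day 1, and 276.1 CPM in replicate 3 of carbon black and 500.7 CPM in replicate 3 of co-exposure at day 4, and was at most 22.65 CPM in the other 24 libraries. Alveolar marker genes were abundant in every group: 9 alveolar type 2 markers summed to between 23840 and 30730 CPM and 8 alveolar type 1 markers to between 6895 and 8720 CPM.

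Per kilobase of exon, and averaged over the 28 libraries, Aqp1 was the most abundant member at 262 CPM per kb. Atp1b1 followed at 190.7 CPM per kb and Scnn1a at 112.6 CPM per kb. The other sodium channel subunits were lower, Scnn1g at 60.1 and Scnn1b at 53.5 CPM per kb. Slc12a2 reached 20.25 CPM per kb and Cftr, the least abundant, 2.25 CPM per kb.

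Changes against sham were modest and differed between members. Aqp1 fell in ozone and in co-exposure at both days. Slc12a2 rose in ozone and co-exposure at day 1, and Atp1b1 rose in co-exposure at day 1. Cftr fell in co-exposure at both days, and Scnn1a rose in ozone at day 4. Carbon black alone changed no member past the threshold at either day, and Scnn1b and Scnn1g passed it in no comparison with sham. Tests were edgeR quasi-likelihood tests in 1 fit of all 28 libraries, with p-values adjusted by Benjamini-Hochberg over the 14887 genes and a threshold of 0.05. A tissue homogenate cannot tell fewer cells of a type from less RNA per cell.

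**Figure D1:**
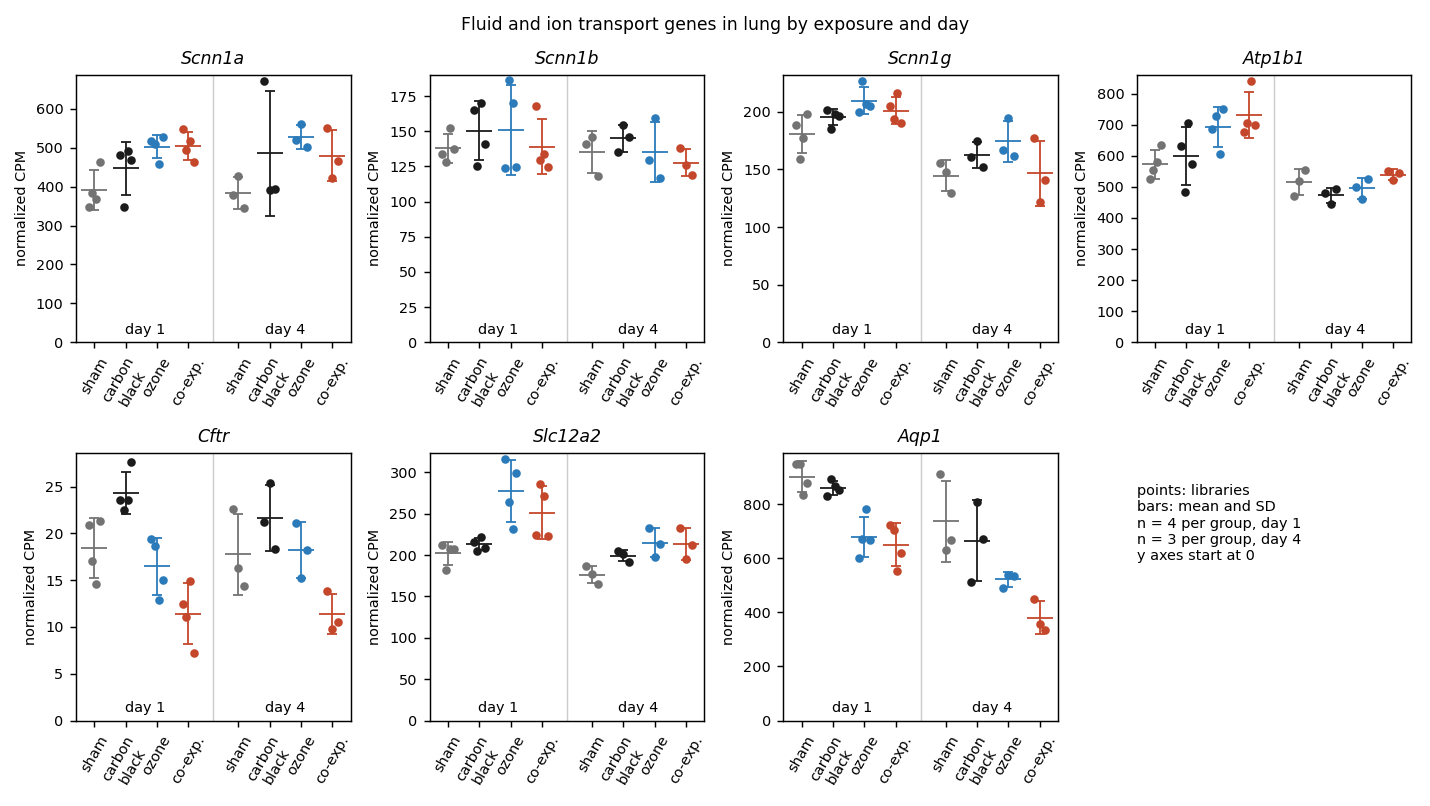
Normalized CPM (y axis, starting at 0) of the 7 genes in each library (points) by exposure and day (x axis), with the group mean and SD (bars). Aqp1 is below every sham library of its day in all ozone and co-exposure libraries, and Cftr is lowest in the co-exposure groups, at 11.44 CPM on day 1 and 11.39 CPM on day 4.

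At day 1, carbon black called 0 of 7 members, against 1.66% of all genes, ozone called 2 (1 higher and 1 lower), against 11.4%, and co-exposure called 4 (2 higher and 2 lower), against 19.2%. At day 4 carbon black called 0, against 0.208%, ozone 2 (1 higher and 1 lower), against 20.7%, and co-exposure 2 (both lower), against 34.1% of all genes in either direction and 16.3% lower. The median log2 fold change of the 7 members ranged from 0.02 in co-exposure at day 4 to 0.22 in ozone at day 1, while that of all genes tested lay within 0.01 of 0 in these 6 comparisons. Counts of this size out of 7 are given as a description of the members and not as a property of the group. Between co-exposure and ozone alone, no member passed at either day (0 of 14887 genes did, with 2337 and 2991 at an unadjusted p under 0.05; DESeq2 called 18 and 493 genes). The change against sham differed past the threshold between days for 0 members (0 of 7 with each exposure, against 0.0940% of genes for carbon black, 4.24% for ozone and 10.2% for co-exposure), and sham at day 4 against day 1 called 0 genes (1473 at an unadjusted p under 0.05, 0 in DESeq2 and limma-voom).

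**Figure D2:**
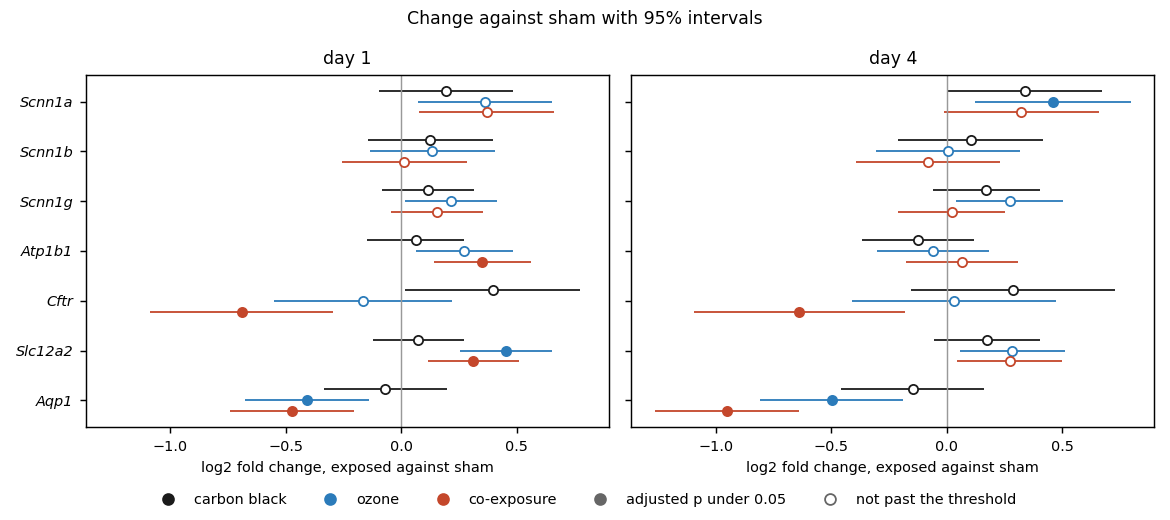
Log2 fold change against sham (x axis) of each member (y axis) with its 95% interval, for 3 exposures at day 1 (left) and day 4 (right). Filled points passed the adjusted p threshold of 0.05, and the Aqp1 point of co-exposure at day 4 is the farthest from 0, at -0.95.

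Scnn1a encodes the alpha subunit, without which the channel conducts little sodium. Its gene spans chr6:125320659-125344943 on the plus strand (GRCm38). At day 4 the sham libraries stood at 379.1, 427.8 and 344.2 CPM and the ozone libraries at 519.4, 561.9 and 502.6 CPM. All 3 ozone libraries lay above all 3 sham libraries, as they did for 22.5% of the genes tested. The log2 fold change was 0.46 ± 0.16 (SE; edgeR, adjusted p = 0.0424). This call was lost without sham replicate 1 (0.45, adjusted p = 0.0930), sham replicate 3 (0.39, 0.166) or any of ozone replicates 1 (0.47, 0.0836), 2 (0.41, 0.142) and 3 (0.49, 0.0728), and without the low-count filter (0.46, 0.0553).

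In the other 5 exposed groups the Scnn1a difference from sham did not pass. Day 1 sham libraries had 348.8, 383.7, 369.5 and 464.6 CPM, ozone libraries 516.9, 510.5, 458.4 and 527.6 CPM, and co-exposure libraries 548.2, 495.5, 516.5 and 462.9 CPM. Only the highest sham library, replicate 4, overlapped the ozone and co-exposure ranges. The log2 fold changes were 0.36 ± 0.14 for ozone (edgeR, adjusted p = 0.0934) and 0.37 ± 0.14 for co-exposure (0.0643). Without sham replicate 4 the co-exposure value was 0.46 and passed (adjusted p = 0.0329), and in a fit restricted to the groups compared both did (0.0229 for ozone and 0.0211 for co-exposure). At day 4 co-exposure gave 551.4, 423.3 and 466.2 CPM, a log2 fold change of 0.32 ± 0.16 (adjusted p = 0.123). Carbon black at day 1 gave 481.9, 346.6, 491.9 and 468.3 CPM, on both sides of the sham range, and the smallest value, 0.19 ± 0.14 (adjusted p = 0.703). At day 4 it gave 671.3, 392.0 and 394.0 CPM, so its value of 0.34 ± 0.16 (adjusted p = 0.317) came mainly from replicate 1.

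Scnn1b and Scnn1g, the beta and gamma subunits, are neighbours on chromosome 7 (chr7:121865038-121918514 and chr7:121734479-121768475, both plus strand). Both join the alpha subunit in the channel and carry tails by which Nedd4l marks the channel for removal. Scnn1b stayed near its sham level in every group, with means of 137.9 CPM in sham and 150.4, 151.1 and 139.1 CPM in carbon black, ozone and co-exposure at day 1, and 135.0 CPM in sham and 145.0, 135.3 and 127.6 CPM at day 4. Its 95% intervals of the log2 fold change against sham reached from -0.39 to 0.42 over the 6 comparisons, which leaves changes of up to that size undetected.

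Scnn1g was slightly higher with ozone, without passing the test. Day 1 sham libraries had 188.2, 159.2, 176.9 and 198.3 CPM and ozone libraries 199.9, 227.0, 207.1 and 205.3 CPM, a log2 fold change of 0.22 ± 0.10 (edgeR, adjusted p = 0.151). Day 4 sham libraries had 155.8, 147.8 and 129.6 CPM and ozone libraries 167.0, 194.8 and 161.8 CPM, a log2 fold change of 0.27 ± 0.11 (adjusted p = 0.0797). The groups did not overlap at either day, a pattern shared by 12.0% of genes at day 1 and 22.5% at day 4. Co-exposure gave 0.16 ± 0.10 at day 1 (edgeR, adjusted p = 0.274) and 0.02 ± 0.11 at day 4 (0.895). Carbon black gave 0.11 ± 0.10 (0.756) and 0.17 ± 0.11 (0.465). Sham libraries themselves averaged 180.7 CPM at day 1 and 144.4 CPM at day 4 (log2 difference -0.32 ± 0.10, adjusted p = 0.502).

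Whether the subunits changed unequally was asked of the ratio of beta or gamma to alpha, which does not depend on library scaling. The ratio can still vary with the mix of cells in the homogenate. The log2 ratio of Scnn1b to Scnn1a averaged -1.50 ± 0.21 in day 1 sham (SD, n = 4), -1.76 ± 0.36 in ozone and -1.87 ± 0.11 in co-exposure. At day 4 it was -1.51 ± 0.07 in sham (n = 3), -1.97 ± 0.14 in ozone and -1.91 ± 0.14 in co-exposure. At day 4 the ozone and co-exposure libraries all lay below every sham library, while at day 1 the ozone libraries split, with 2 inside the sham range. The log2 ratio of Scnn1g to Scnn1a averaged -1.11 ± 0.17, -1.26 ± 0.12 and -1.33 ± 0.07 in sham, ozone and co-exposure at day 1 and -1.41 ± 0.13, -1.60 ± 0.06 and -1.72 ± 0.08 at day 4. In the same order, 5 club cell markers summed to 33850 to 45620, 28490 to 42390 and 32900 to 61270 CPM at day 1. At day 4 they summed to 46520 to 61710, 25990 to 28690 and 22600 to 52950 CPM. The 6 ciliated cell markers summed to 501.5 to 732.9, 328.2 to 524.0 and 373.2 to 674.6 CPM at day 1. Their day 4 sums were 600.7 to 747.9, 527.5 to 586.6 and 602.5 to 1056 CPM. The part of these cells in the ratios was not tested.

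Over both days together, the log2 ratio to Scnn1a fell by 0.38 for Scnn1b and by 0.26 for Scnn1g in co-exposure, with 7 of 7 libraries below the sham mean of their day for each (two-sided exact permutation test within days, p = 0.00286, adjusted over 6 tests 0.00857). The smallest p this test allows is 0.00143. In ozone it fell by 0.36 for Scnn1b (5 of 7 libraries below; exact p = 0.0157, adjusted 0.0314) and by 0.17 for Scnn1g (7 of 7; exact p = 0.0243, adjusted 0.0364). Both co-exposure calls held when any 1 library was left out. The Scnn1b and Scnn1g ratios share Scnn1a, so their tests are not independent of each other. Both ozone calls were lost without sham replicate 1 or 3 of day 1, sham replicate 1 or 3 of day 4, ozone replicate 1 or 4 of day 1, or ozone replicate 1 or 3 of day 4 (values from -0.37 to -0.31 for Scnn1b and -0.17 to -0.13 for Scnn1g, adjusted p from 0.0514 to 0.0836). Carbon black gave -0.13 and -0.10 (exact p = 0.571 and 0.596), with day 4 replicate 1, the library with the high Scnn1a value, at -2.31 and -2.06 against a highest value of -1.35 and -1.16 in its group.

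**Figure D3:**
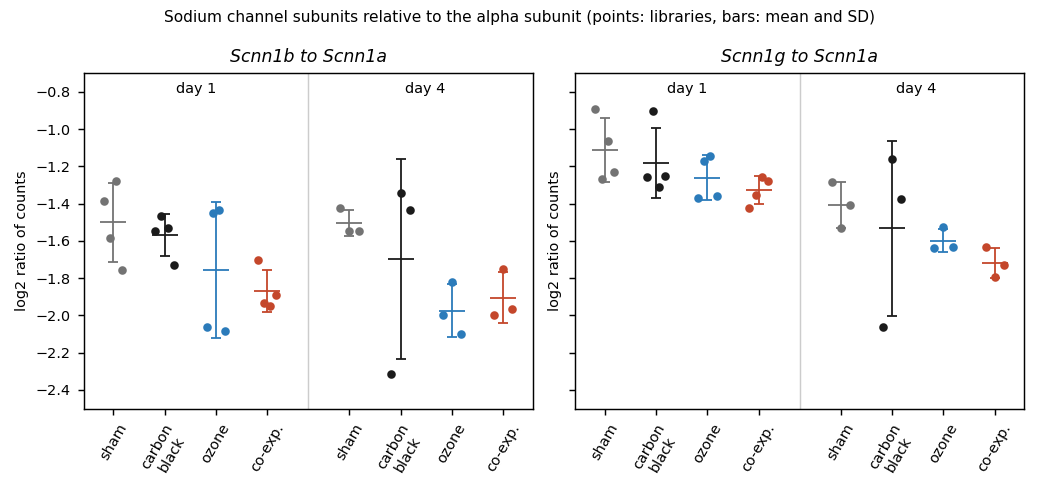
Log2 ratio of counts of Scnn1b (left) and Scnn1g (right) to Scnn1a (y axis) in each library (points) by exposure and day (x axis), with group mean and SD (bars). Co-exposure means are below the sham mean of their day in all 4 cases, for example -1.87 against -1.50 for Scnn1b at day 1.

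Atp1b1 encodes the beta 1 subunit of the sodium pump, which carries the pump to the membrane. The gene lies on chromosome 1 at chr1:164437109-164458355 on the minus strand. Day 1 sham libraries had 526.1, 553.9, 578.8 and 635.6 CPM and co-exposure libraries 677.9, 705.8, 842.0 and 699.1 CPM. Each co-exposure library exceeded each sham library, as for 12.0% of genes. The log2 fold change was 0.35 ± 0.10 (edgeR, adjusted p = 0.0150). It no longer passed without co-exposure replicate 3, the highest library (0.28, adjusted p = 0.0869), without sham replicate 1 (0.31, 0.0575), or without the sham and ozone libraries that held skeletal muscle RNA (0.33, 0.0502).

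Ozone at day 1 gave Atp1b1 levels of 685.8, 729.8, 605.8 and 749.9 CPM, a log2 fold change of 0.27 ± 0.10 (edgeR, adjusted p = 0.0777), and overlapped sham through replicate 3. Without that replicate it was 0.33 and passed (adjusted p = 0.0444), and DESeq2 called it too (0.0472). At day 4 the levels lay between 446.4 and 554.7 CPM in all 12 libraries and the ozone and co-exposure values were -0.06 ± 0.12 and 0.07 ± 0.12. The change between days was not past the threshold for ozone (day 4 minus day 1, -0.33 ± 0.15, adjusted p = 0.269) or co-exposure (-0.28 ± 0.15, 0.258). Of the 7 other pump genes tested (Fxyd7 was not), 0 passed in ozone at day 1, and 2 fell in co-exposure.

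Cftr, a chloride and bicarbonate channel opened by cAMP signalling, lies at chr6:18170687-18322768 on the plus strand. Co-exposure libraries at day 1 had 12.47, 11.06, 14.95 and 7.27 CPM, against 20.9, 17.06, 14.6 and 21.35 CPM in sham, and only co-exposure replicate 3 reached into the sham range. The mean dropped by 38.1% (log2 fold change -0.69 ± 0.19; edgeR, adjusted p = 0.0113). Without co-exposure replicate 4, the lowest library, the value was -0.53 and no longer passed (adjusted p = 0.0538).

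At day 4 co-exposure libraries had 13.88, 9.80 and 10.51 CPM and sham libraries 22.61, 16.29 and 14.39 CPM, without overlap, as for 19.5% of genes. The log2 fold change was -0.64 ± 0.22 (edgeR, adjusted p = 0.0257). It did not pass without sham replicate 1 (-0.42, 0.182), co-exposure replicate 2 (-0.54, 0.106) or co-exposure replicate 3, which held skeletal muscle RNA (-0.58, 0.0873), or in a fit of the sham and co-exposure libraries of that day alone (-0.65, 0.0605).

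Neither exposure alone gave a lower Cftr call. Carbon black libraries at day 1 had 23.58, 22.54, 23.6 and 27.6 CPM, all above sham (as for 4.73% of genes), a log2 fold change of 0.39 ± 0.18 (edgeR, adjusted p = 0.442). At day 4 they had 21.2, 25.41 and 18.38 CPM (0.29 ± 0.21, adjusted p = 0.533). Ozone gave 19.4, 18.64, 12.87 and 14.99 CPM at day 1 (-0.17 ± 0.18, adjusted p = 0.624) and 21.16, 15.24 and 18.25 CPM at day 4 (0.03 ± 0.21, 0.936).

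The interaction asks whether adding carbon black changed Cftr differently with ozone than without it. It was -0.92 ± 0.26 at day 1 (edgeR, adjusted p = 0.0726, against 1.46% of genes called) and -0.96 ± 0.30 at day 4 (adjusted p = 0.0783, against 1.37%), and so missed the threshold at both days. Among the alternatives tried, it passed in 2 of 24 at day 1 and 4 of 19 at day 4, with adjusted p up to 0.176 and 0.239. DESeq2 called it at both (adjusted p = 0.0317 and 0.0394). The fit of only the compared groups called it at day 1 (0.0412), and the fit with the replicate number as a block at day 4 (0.0470). In these settings more genes over all were called for the interaction than in the main fit, as given in the closing section. At day 4 it also passed without carbon black replicate 3 (-1.07, 0.041) or co-exposure replicate 1 (-1.13, 0.0158), and without the latter the interaction of Scnn1g passed as well (-0.59, 0.00631, from -0.42 and 0.113). The direct difference between co-exposure and ozone was -0.52 ± 0.19 at day 1 (adjusted p = 0.219) and -0.67 ± 0.22 at day 4 (0.111). Without co-exposure replicate 1 of day 4 this difference passed for Cftr (-0.83, adjusted p = 0.0219), Aqp1 (-0.59, 0.0142) and Scnn1g (-0.40, 0.0123).

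Ionocytes are rare airway cells rich in Cftr, and the 4 markers listed for them were unevenly covered. Foxi1 had 1 count in all 28 libraries together and Ascl3 0 to 4 counts per library, so neither was tested. Of the other 2 listed markers, Stap1 fell in ozone and co-exposure at both days and Atp6v0d2, a proton pump subunit that macrophages also make, rose in carbon black at both days and in ozone and co-exposure at day 4. Stap1 had 13 to 67 and Atp6v0d2 191 to 633 counts per library, so Atp6v0d2 made up most of the summed level. The 4 summed to between 48.36 and 49.57 CPM in sham and 33.48 and 51.22 CPM in co-exposure at day 1, and to between 32.44 and 39.03 CPM in sham and 45.91 and 74.33 CPM in co-exposure at day 4. Their part in the Cftr result was not tested.

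Slc12a2 brings sodium, potassium and chloride into the cell together on the blood side. Its gene is on chromosome 18 at chr18:57878678-57946821, plus strand. Day 1 sham libraries had 212.7, 182.0, 207.8 and 207.5 CPM, ozone libraries 316.2, 263.9, 231.4 and 298.8 CPM and co-exposure libraries 224.9, 285.8, 271.4 and 223.5 CPM. All ozone and co-exposure libraries exceeded all sham libraries, as for 12.0% of genes in each comparison. The log2 fold change was 0.45 ± 0.09 with ozone (edgeR, adjusted p = 0.00212) and held under each alternative tried, with adjusted p no higher than 0.0177.

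With co-exposure the Slc12a2 value was 0.31 ± 0.09 (edgeR, adjusted p = 0.0213). It was lost without sham replicate 2 (0.26, adjusted p = 0.0849), co-exposure replicate 2 (0.24, 0.0797) or co-exposure replicate 3 (0.27, 0.0848), and without the sham and ozone libraries that held muscle RNA (0.26, 0.0929). The day 4 differences were smaller and missed the threshold: 187.1, 176.9 and 165.5 CPM in sham, 233.4, 198.0 and 214.0 CPM in ozone (0.29 ± 0.11, adjusted p = 0.0647) and 233.0, 194.9 and 212.0 CPM in co-exposure (0.27 ± 0.11, 0.0547). All exposed libraries lay above sham, as for 22.5% and 20.7% of genes. The ozone value passed in a fit restricted to its 2 groups (adjusted p = 0.0357), and the co-exposure value in DESeq2 (0.0424) and without co-exposure replicate 2 (0.33, 0.0403). Carbon black libraries had 205.1, 201.5 and 191.6 CPM at day 4, all above sham (as for 7.93% of genes), with a log2 fold change of 0.18 ± 0.11 (adjusted p = 0.447).

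Some general epithelial markers rose in the comparisons in which Scnn1a, Atp1b1 and Slc12a2 passed upward, and also at day 4, when Atp1b1 did not. Of 5 pan-epithelial genes, 2 rose in ozone and 3 in co-exposure at day 1, and 4 and 5 at day 4. Their summed level was 1027 to 1295 CPM in sham, 1451 to 1665 CPM in ozone and 1661 to 1991 CPM in co-exposure at day 1, and 1149 to 1214, 1752 to 2078 and 2049 to 2478 CPM at day 4. Unscaled counts per library ran from 728 to 5349 for the keratin Krt8 and from 455 to 3467 for the keratin Krt18. For the other genes in the sum they ran from 350 to 1133 (Epcam), 2475 to 6527 (Cdh1) and 1183 to 2437 (Nkx2-1). None of the 5 passed with carbon black. In the alveolar lists, at most 2 of 8 type 1 and 2 of 9 type 2 markers passed upward in any comparison with sham. The part of the epithelial markers in these results was not tested.

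Aqp1, the water channel of capillary endothelium, had the largest change against sham among the members. The gene lies at chr6:55336432-55348555 on the plus strand. Day 1 sham libraries had 948.6, 946.9, 833.5 and 877.9 CPM. Ozone libraries had 599.9, 670.7, 780.3 and 667.3 CPM, and co-exposure libraries 724.0, 705.2, 551.7 and 618.7 CPM. All 8 lay below the lowest sham library, as for 9.23% of genes with ozone and 10.4% with co-exposure. The mean fell by 24.6% with ozone (log2 fold change -0.41 ± 0.13; edgeR, adjusted p = 0.0374) and by 27.9% with co-exposure (-0.47 ± 0.13, 0.0104).

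The ozone call at day 1 was fragile. It was lost without sham replicate 1 (-0.38, adjusted p = 0.0909), 2 (-0.38, 0.0871) or 4 (-0.42, 0.0551), without ozone replicate 1 (-0.35, 0.112), 2 (-0.40, 0.0753) or 4 (-0.40, 0.0993), without both libraries that held muscle RNA (-0.38, 0.144), and without the low-count filter (-0.41, 0.0560). The co-exposure call was lost only without co-exposure replicate 3 (-0.40, 0.0550) among the alternatives tried.

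At day 4 sham libraries had 909.8, 631.2 and 667.1 CPM, ozone libraries 491.3, 537.9 and 535.9 CPM and co-exposure libraries 450.9, 356.4 and 334.4 CPM. Again no ozone or co-exposure library reached the lowest sham library. Separation downward from sham was seen for 20.6% of genes with ozone and 19.5% with co-exposure. The mean fell by 29.1% with ozone (log2 fold change -0.50 ± 0.15; edgeR, adjusted p = 0.0177) and by 48.3% with co-exposure (-0.95 ± 0.15, 2.08e-05). The ozone call was lost without sham replicate 1, the highest library (-0.32, 0.152), or ozone replicate 1 (-0.45, 0.0746). The co-exposure call held in all 13 alternatives, with values from -1.08 to -0.77. The step from ozone to co-exposure was -0.46 ± 0.15 (adjusted p = 0.110) and the step from day 1 to day 4 in the co-exposure change -0.48 ± 0.20 (adjusted p = 0.121, against 10.2% of genes called). The latter passed without co-exposure replicate 1 of day 4 (-0.61, 0.0484).

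Carbon black alone left Aqp1 near sham, with 828.9, 893.0, 865.6 and 851.4 CPM at day 1 and 511.0, 809.8 and 672.0 CPM at day 4. The 95% intervals of the log2 fold change were -0.34 to 0.20 and -0.46 to 0.16. Neutrophil markers rose with carbon black at day 1, 6 of 6 with summed levels of 126.6 to 4314 CPM against 40.08 to 236.0 CPM in sham, and 0 of 6 passed at day 4.

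Pan-endothelial markers fell alongside Aqp1. Of 8 pan-endothelial genes, 5 fell in ozone and 6 in co-exposure at day 1, and 6 and 8 at day 4, with median log2 fold changes of -0.41, -0.56, -0.63 and -1.05, and 0 passed with carbon black. The 8 genes summed to 3252 to 3688 CPM in sham, 2211 to 2848 CPM in ozone and 2046 to 2829 CPM in co-exposure at day 1, and to 2684 to 3525, 1944 to 1978 and 1060 to 1831 CPM at day 4. Aqp1 as a percentage of that sum was 26.6 ± 1.87% in sham, 26.5 ± 4.52% in ozone and 27.9 ± 3.15% in co-exposure at day 1 (SD, n = 4), and 24.2 ± 1.99%, 26.6 ± 1.54% and 27.1 ± 3.83% at day 4 (n = 3). In carbon black this percentage was 27.8 ± 1.29% at day 1 and 21.9 ± 6.70% at day 4. Single ozone libraries at day 1 ran from 21.06 to 30.34%. The capillary lists moved less at day 1. The 4 general capillary markers summed to 1236 to 1424 CPM in sham, 970.7 to 1299 CPM in ozone and 932.0 to 1157 CPM in co-exposure. The 4 markers of aerocytes, a capillary cell type, summed to 414.3 to 573.2, 395.1 to 587.8 and 421.4 to 547.3 CPM. At day 4 both sums lay below the sham range in ozone and co-exposure. The part of the endothelial markers in the Aqp1 result was not tested.

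Erythrocytes, which also hold Aqp1, had markers that fell at day 4. Of 8 erythrocyte genes, 0 fell at day 1 in ozone or co-exposure, and 5 and 7 fell at day 4. Their sum at day 4 was 11140 to 30580 CPM in sham, 5043 to 9050 CPM in ozone and 3965 to 6913 CPM in co-exposure. Of 4 mesothelial markers, 0 passed at day 1 and 1 rose in each of ozone and co-exposure at day 4. The part of either cell type in the Aqp1 result was not tested.

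**Figure D4:**
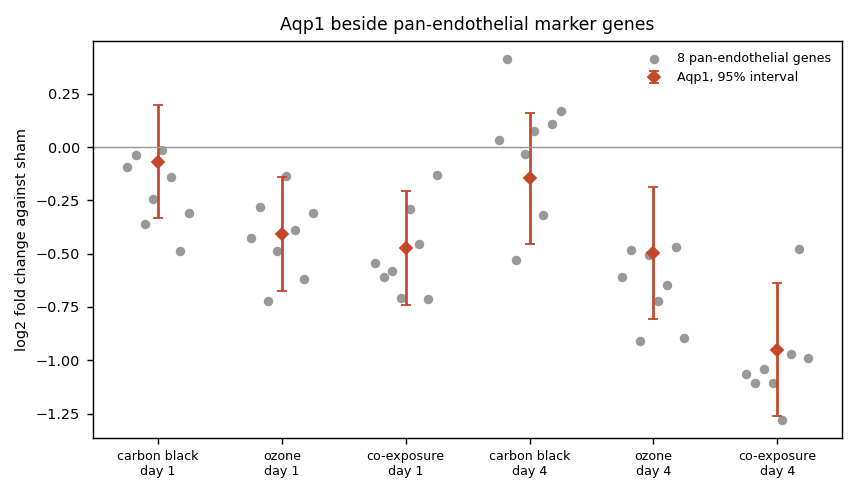
Log2 fold change against sham (y axis) of Aqp1 (diamonds, with 95% interval) and of 8 pan-endothelial marker genes (grey points) in the 6 comparisons (x axis). In co-exposure at day 4 Aqp1 stood at -0.95 and the median of the markers at -1.05.

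Ordered by level across the 8 groups, most neighbouring groups differed by less than the larger of their SDs. The exceptions were the steps below ozone day 1 for Atp1b1 (692.8 CPM) and Cftr (16.48 CPM), below co-exposure day 1 and carbon black day 4 for Slc12a2 (251.4 and 199.4 CPM), and below co-exposure day 1 and ozone day 4 for Aqp1 (649.9 and 521.7 CPM). No neighbours differed by more than the larger SD for Scnn1a, Scnn1b or Scnn1g. Aqp1 ran from 901.7 CPM in sham day 1 to 380.6 CPM in co-exposure day 4, and Cftr from 24.33 CPM in carbon black day 1 to 11.39 CPM in co-exposure day 4.

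The genes most like each called member were found as those with the smallest root mean square difference of centred log2 CPM over the 28 libraries. They were Snx4, Cntrl and Cux1 for Scnn1a (0.111, 0.129 and 0.133), Rab27a, Pdlim2 and Eif5 for Atp1b1 (0.133, 0.135 and 0.141), and Usp47, Plaa and Etf1 for Slc12a2 (0.109, 0.114 and 0.116). For Aqp1 they were Sh3tc2, Tmem140 and Dusp3 (0.141, 0.148 and 0.149). Cftr had the least close matches, Pde7b, Parp14 and Sort1 (0.239, 0.261 and 0.261). The Sh3tc2 mean was 34.16 CPM in sham day 1, 28.19 CPM in sham day 4 and 14.35 CPM in co-exposure day 4. For Pde7b these means were 33.17, 24.75 and 17.19 CPM.

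Around the members, 54 genes of the same system were listed by role, of which 51 were tested. Called higher and lower were 0 and 0 with carbon black, 4 and 2 with ozone and 6 and 4 with co-exposure at day 1, and 0 and 0, 7 and 4, and 9 and 7 at day 4. All genes tested gave 1.57% and 0.0873%, 6.81% and 4.63%, and 10.1% and 9.09% higher and lower at day 1, and 0.161% and 0.0470%, 11.7% and 9.07%, and 17.7% and 16.3% at day 4. The median log2 fold change of the 51 lay between -0.02 and 0.105.

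Among 13 sodium channel regulators, the membrane serine proteases St14 and Tmprss4, of the kind that cleave and open the channel, rose in ozone and co-exposure at both days. St14 rose by 0.43 and 0.56 at day 1 and by 0.77 and 0.85 at day 4 (SE 0.08 to 0.10), and Tmprss4 by 0.51, 0.63, 0.68 and 0.75 (SE 0.11 to 0.13). Hsd11b2, which shields the mineralocorticoid receptor from glucocorticoids, rose at day 4 by 1.93 ± 0.28 with ozone and 1.96 ± 0.28 with co-exposure from a low level of 1.40 CPM in sham. Tsc22d3, a glucocorticoid-induced regulator that increases channel activity in the kidney, fell at day 4 (log2 fold change -1.60 ± 0.19 and -1.34 ± 0.19), from 342.7 CPM in day 4 sham to 113.3 CPM in ozone and 135.2 CPM in co-exposure.

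Among the pump genes, Atp1b2, a beta subunit best known in the brain, fell in co-exposure by 0.55 ± 0.20 at day 1 and 0.75 ± 0.23 at day 4 on the log2 scale, to 8.74 ± 0.960 CPM (SD, n = 4) and 6.94 ± 0.834 CPM (n = 3). Day 4 sham libraries had 11.42 to 11.83 CPM. Fxyd2, a pump regulator best known in the kidney, fell in co-exposure at day 1 (-1.52 ± 0.54, edgeR, adjusted p = 0.0493) from a level of 1.15 CPM in sham. Fxyd6 passed in no comparison with sham. Fxyd1, a pump regulator abundant in heart, fell at day 4 (-1.07 and -0.82). Heart muscle markers moved with Fxyd1 in ozone: 4 of 4 fell in ozone at day 4, where they summed to 127.9 to 173.4 CPM against 356.5 to 665.7 CPM in sham, while 0 of 4 passed in co-exposure (151.6 to 572.7 CPM). Their part was not tested.

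Of the other water channels, Aqp5, the channel of the air-side membrane of type 1 cells, rose by 0.33 ± 0.10 in co-exposure at day 1 and by 0.50 ± 0.12 in ozone and 0.58 ± 0.12 in co-exposure at day 4 (edgeR, adjusted p = 0.0248, 0.00315 and 0.000412). Its mean went from 351.0 ± 36.2 CPM in day 4 sham to 496.2 ± 18.7 CPM in ozone and 525.9 ± 44.5 CPM in co-exposure (SD, n = 3), opposite in direction to Aqp1 in the same libraries. Aqp4, Aqp9 and Aqp11 passed in no comparison with sham.

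Of 13 other chloride and bicarbonate genes none fell. Slc26a4, the chloride and bicarbonate exchanger pendrin of airway cells, rose in ozone and co-exposure by 1.09 ± 0.22 and 1.16 ± 0.22 at day 1 and by 2.37 ± 0.26 and 1.78 ± 0.26 at day 4. Its ozone libraries at day 4 had 23.85 to 28.6 CPM against 3.87 to 7.53 CPM in sham. Ano1, a calcium-activated chloride channel, rose at day 4 by 1.16 ± 0.20 and 0.85 ± 0.20, and Slc9a3r1, a scaffold that holds Cftr at the membrane, rose in co-exposure at day 4 by 0.52 ± 0.14. Clca1, a secreted regulator of Ano1, passed in no comparison with sham. Its day 4 ozone libraries ran from 0.903 to 35.78 CPM (13.09 ± 19.67, mean ± SD, n = 3), and the lowest lay within the sham range of 0.615 to 2.53 CPM.

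The kinases Oxsr1 and Stk39, which switch on Slc12a2, rose at day 1. Oxsr1 rose by 0.27 ± 0.07 in ozone and 0.26 ± 0.07 in co-exposure, and Stk39 by 0.55 ± 0.15 in co-exposure. Wnk1, a kinase that acts upstream of both, and Kcne3, a potassium channel subunit, passed in no comparison with sham.

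Adrb1, a beta adrenergic receptor best known in the heart, fell at day 4 (log2 fold change -0.63 ± 0.13 in ozone and -0.56 ± 0.13 in co-exposure), and in ozone already at day 1 (-0.47 ± 0.12). Trpv4, a calcium channel of endothelium and epithelium, changed by -0.68 ± 0.23 and -0.80 ± 0.24 at day 4. Cnga1, a cation channel near the detection floor at 1.15 CPM in sham, fell at day 1 (-1.84 ± 0.53 in ozone and -1.81 ± 0.53 in co-exposure).

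**Figure D5:**
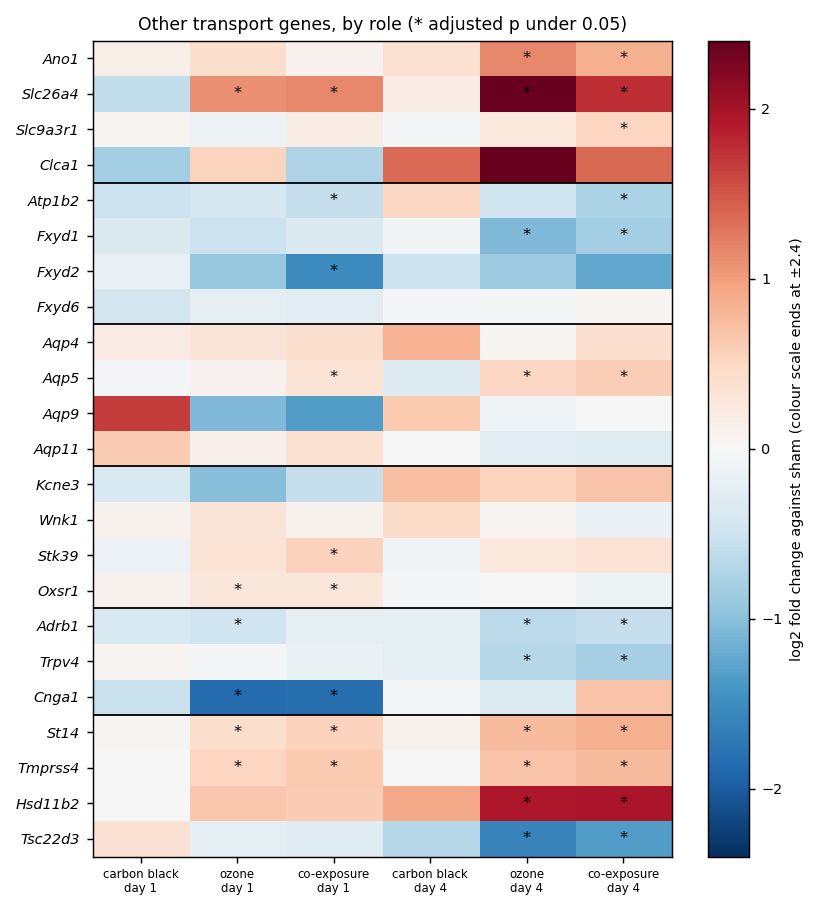
Log2 fold change against sham (colour, with the scale ending at ±2.4 and larger values drawn at its end) of the 23 named pathway genes (y axis, blocks by role) in the 6 comparisons (x axis), with stars at an adjusted p under 0.05. Slc26a4, Hsd11b2 and St14 are higher and Tsc22d3 and Adrb1 lower in ozone and co-exposure at day 4, and the 2 carbon black columns hold no star.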

How the data were processed

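RNA of 28 whole-lung libraries was sequenced as polyA-selected, strand-specific paired reads, per the labels' protocols. Salmon 1.1.0 quantified the reads, per the labels; mm10, R 3.6.3 and DESeq2 appear in the submitters' processing notes without roles. The authors' values are estimated counts of genes as deposited, unnormalized (17.7% not whole), and were rounded here. Salmon divides shared reads by an estimate. Cog7, Nme7 and, within Cftr, the antisense gene Gm15592 and the pseudogene Gm15595 overlap members in the annotation, so reads there may be misassigned. Library totals of 5135443 to 9718682 counts set the precision.

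Groups and replicate numbers came from the sample titles. Symbols came from GENCODE M21 (35505 IDs with a symbol). The main test was edgeR 4.0.16 (R 4.3.3): filterByExpr, TMM, 1 robust quasi-likelihood fit with a mean for each of the 8 groups, and Benjamini-Hochberg adjustment over 14887 genes at 0.05. Log2 fold changes are given ± SE, and their 95% intervals use 20 residual degrees of freedom. Ratios used counts plus 0.5 and an exact permutation test within days (1400 arrangements). The edgeR fit was tested on simulated counts for ozone against sham at day 1.

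The members and gene lists were chosen with earlier results of these data known. All 7 members were tested in every comparison, and not every value is printed. Of 54 pathway genes (some listed at first are not reported here), up to 4 per role with the smallest p against sham are named. Alternatives were median-of-ratios scaling, no filter, a filter at 5 CPM in 3 libraries, DESeq2 1.42.0, limma-voom (limma 3.58.1), only the compared groups, the replicate number as a block, single days for the ratios, and each library left out. Leaving out both day 1 libraries with muscle RNA was chosen after seeing the data. Same-numbered libraries deviated together (every correlation over 0.1) only for co-exposure and sham at day 4 (0.292, 0.162 and 0.239), so the numbers pair libraries there by that rule, and the labels give no source of pairing.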

Additional observations from a re-analysis of the deposited data

Results flagged for a closer look

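In 28 groups of 4 libraries (7 genes in each of the 4 day 1 groups), a library far from the other 3 was found in 3, where chance gives about 1 in 20. Scnn1a stood at 346.6 CPM in replicate 2 of carbon black, below the other libraries of its group at 468.3 to 491.9 CPM. Atp1b1 stood at 842.0 CPM in replicate 3 of co-exposure, above the others at 677.9 to 705.8 CPM. Slc12a2 stood at 182.0 CPM in replicate 2 of sham, below the others at 207.5 to 212.7 CPM, and that library also held the most skeletal muscle RNA (1171 CPM over 4 genes).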

How the results depend on the processing

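No member's fold change past the threshold turned direction in any alternative tried. Of 1680 alternative values for the 98 member results, 1632 stayed on their side of the threshold, 29 lost it and 19 gained it. The Slc12a2 rise with ozone at day 1 and the Aqp1 fall with co-exposure at day 4 passed in all of theirs. The cause of the changes below was not tested.

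With no low-count filter, 1 member passed for ozone at each day. Without both day 1 libraries that held muscle RNA, 1 passed for ozone and 2 for co-exposure at day 1. With only the compared groups, 1 passed for co-exposure at day 4 and 1 for the interaction at day 1, and DESeq2 called 1 for the interaction at each day. Leaving out 1 library gave 1 to 3 members for ozone at day 1 and 1 to 5 for co-exposure at day 1. At day 4 it gave 0 to 2 for ozone, 1 to 2 for co-exposure, 0 to 3 for co-exposure against ozone and 0 to 2 for the interaction, and 0 to 1 for the change with co-exposure between days.

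At day 1 alone the ratio tests gave, for Scnn1b and Scnn1g, -0.26 and -0.15 with ozone and -0.37 and -0.22 with co-exposure (exact permutation, adjusted p 0.171 to 0.386). At day 4 alone they gave -0.47 and -0.19 with ozone and -0.40 and -0.31 with co-exposure (adjusted 0.200 to 0.300). The smallest p is 0.1 at day 4, where no test could pass, and 0.0286 at day 1. Leaving out 1 library gave -0.42 to -0.31 for Scnn1b and -0.20 to -0.13 for Scnn1g with ozone, and -0.43 to -0.35 and -0.30 to -0.23 with co-exposure.

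With the replicate block, 1 member passed for the interaction at day 4, and the ozone ratios, -0.36 and -0.17, were no longer past the threshold (exact permutation, adjusted p = 0.0625 and 0.141). The block changed no other call of a member or ratio. Same-number correlations of the other comparisons ran from -0.209 to 0.347.

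Counts over all genes moved by more than 1.5 times in places. With only the compared groups they were 7 for carbon black at each day (247 and 31 in the fit of all groups), 3175 for co-exposure at day 4 (5073), 1125 for the change with ozone between days (631), 2 for that with carbon black (14), and 898 and 0 for the interactions (218 and 204). DESeq2 gave 175 for carbon black at day 4, 543 and 1028 for the interactions, 41 for the change with carbon black between days, and 18 and 493 for co-exposure against ozone, and limma-voom gave 18 and 96 for carbon black and for co-exposure against ozone at day 4. The block gave 839 for the interaction and 177 for co-exposure against ozone at day 4, no filter gave 64 for that interaction, the stricter filter gave 28 for co-exposure against ozone at day 4, and leaving out the libraries with muscle RNA gave 1069 for ozone at day 1 (1704).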
